A study of Rattus norvegicus with 9 samples.

Results

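Values are given here for 10 genes of the unfolded protein response and of protein folding in the endoplasmic reticulum (ER), namely Hspa5, Hsp90b1, Calr, Canx, Pdia3, Pdia4, Xbp1, Atf4, Ddit3 and Creb3l1, in the left ventricle of infarcted rats. The genes were picked by name from the 35843 rows of an RNA-seq table, and each name occurred in 1 row. The 9 libraries came from adult male Sprague-Dawley rats, with 3 rats in each of 3 groups, and the ventricles were taken at day 28. Rats of the Sham group had the operation without closing of the coronary artery and received saline by daily gavage. Rats of the MI group had this artery, the left anterior descending branch, tied off for good and received the same saline. Rats of the MI + DAPA (1st d) group, called DAPA below, had the same occlusion and received dapagliflozin, an inhibitor of the sodium-glucose co-transporter SGLT2, at 1 mg/kg by daily gavage from day 1. The labels call the tissue left ventricle. The study's methods say that molecular work mainly used the border of the infarct with the scar cut away, and matching parts of Sham hearts. They do not state which zone was sequenced. The study's results call the sequenced tissue normal myocardium for Sham and infarct myocardium for MI and DAPA. Each library thus mixed cells in unknown proportions. In bulk tissue of this kind, a change in the number of cells of a type and a change in RNA per cell cannot be told apart.

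Proteins that are secreted or sit in membranes are folded in the ER with the help of chaperones and of enzymes that form disulfide bonds. When unfolded proteins pile up, the sensors IRE1 (gene Ern1), ATF6 and PERK (gene Eif2ak3) start the unfolded protein response. IRE1 splices the mRNA of Xbp1, ATF6 is cut to release a transcription factor, and PERK phosphorylates eIF2-alpha, which slows translation but favours that of Atf4. ATF4 in turn can raise Ddit3, which encodes CHOP, a factor linked to cell death after prolonged stress. Creb3l1, also known as OASIS, encodes a membrane-bound relative of ATF6 that is cut in a similar way and is known for its part in collagen secretion. Plasma cells and fibroblasts, which secrete antibodies and matrix, carry high levels of this machinery. The values here are total mRNA, so neither the splicing of Xbp1 nor the cleavage of ATF6 or OASIS nor any protein level was measured.

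The ER stress response element, CCAAT followed after 9 bases by CCACG, is the classical promoter element of the ER chaperones and is bound by ATF6 together with NF-Y. It was searched on both strands as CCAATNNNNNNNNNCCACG in RefSeq promoters of the rat assembly GRCr8, each running from 250 bases before to 50 bases after a gene's start. Of the 10 genes, 9 had an entry in that table, and Pdia3 had none. The element was present in 5 of these 9 promoters, against 0.0657% (22) of all 33469 promoters in the table. Because the element is already known from ER chaperone promoters, this contrast is a description and not a test of enrichment. The 6 matches are shown because they are a sequence feature that Hspa5, Hsp90b1, Calr, Canx and Xbp1 share. Pdia4, Atf4, Ddit3 and Creb3l1 had no match. Capitals mark the CCAAT and CCACG ends, or ATTGG and CGTGG where the element lies on the opposite strand, and each sequence is given 5′ to 3′ on the strand of the gene.
Hspa5: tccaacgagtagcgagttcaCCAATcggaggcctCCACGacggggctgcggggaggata
Hsp90b1, upstream match: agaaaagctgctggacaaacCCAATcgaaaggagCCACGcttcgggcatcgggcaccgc
Hsp90b1, downstream match: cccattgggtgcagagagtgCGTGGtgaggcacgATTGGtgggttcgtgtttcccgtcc
Calr: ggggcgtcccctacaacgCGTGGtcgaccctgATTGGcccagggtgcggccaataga
Canx: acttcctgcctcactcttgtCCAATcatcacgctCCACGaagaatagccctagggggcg
Xbp1: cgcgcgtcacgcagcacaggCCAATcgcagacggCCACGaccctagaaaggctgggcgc

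The Hspa5 sequence lies at chr3:38452953-38453011 on the plus strand, and its element ends 25 bases before the start. The Hsp90b1 sequences lie at chr7:23012431-23012489 and chr7:23012327-23012385 on the minus strand, the second with the element on the opposite strand. The Calr sequence lies at chr19:40213117-40213173 on the plus strand with the element on the opposite strand. The Canx sequence lies at chr10:35158049-35158107 on the minus strand and the Xbp1 sequence at chr14:84604538-84604596 on the plus strand. Elements without a spacer gave no match in any of the 9 promoters. These were TGACGTGG, bound by XBP1, with matches in 0.595% of all promoters, the cAMP response element TGACGTCA with 1.83%, and TTGCATCA, 1 form of the element bound by ATF4 with C/EBP-family partners, with 0.795%. The shorter CCAAT, which is part of the ER stress response element, occurred in 7 of the 9, adding Pdia4 and Ddit3, and in 37.5% of all promoters. A match is only a stretch of letters, and binding was not measured.

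Expression is given as FPKM, fragments scaled by the authors to gene length and to a library-size denominator, which allows levels of different genes to be compared per length. From the steps between low values, 13597239 (MI replicate 2) to 17210909 (Sham replicate 3) reads per rat were recovered. The mitochondrial genome took 61.1% to 66.9% of them in Sham, 7.07% to 19.1% in MI and 17.5% to 32.0% in DAPA. That denominator was not proportional to the reads recovered: per recovered read it was 0.560 to 0.678 in Sham, 1.31 to 1.42 in MI and 1.04 to 1.35 in DAPA, relative to 1 common unit. The deposited FPKM do not carry this difference over to the other genes, since their median log2 change from Sham to MI was -0.005. Cardiomyocyte markers were present in all rats, with a summed FPKM of 8907 to 12603 in Sham, 3344 to 21139.6 in MI and 15266 to 32184 in DAPA. The lowest of these values was MI replicate 2. Summed fibroblast markers were 451 to 731 in Sham, 3796 to 7403 in MI and 2339 to 4085 in DAPA, and summed macrophage markers 123 to 435, 1706 to 3106 and 949 to 1698. Plasma cell markers stood apart in 1 rat above all, with a summed FPKM of 10.9 to 19.4 in Sham and 19.9 to 26.1 in DAPA but 51.0, 3848 and 677 in MI replicates 1, 2 and 3. Summed endothelial markers were 974 to 1176 in Sham, 279 to 366 in MI and 379 to 421 in DAPA. Summed adipocyte markers were highest in Sham, at 3923 to 5575, against 172 to 713 in MI and 559 to 1077 in DAPA. Within that list, Adipoq, Plin1 and Cidec were at 0 in all Sham rats. Only 1 of its 5 genes reached an FPKM of 1 in at least 3 rats of MI and Sham, so the sum rested mostly on 1 gene. The mean log2(FPKM + 1) of the list was 2.39 to 2.49 in Sham, 1.62 to 2.15 in MI and 2.19 to 2.98 in DAPA. Whether Sham or DAPA stood higher thus depended on the measure. None of the markers searched was at 0 in every rat.

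**Figure D1:**
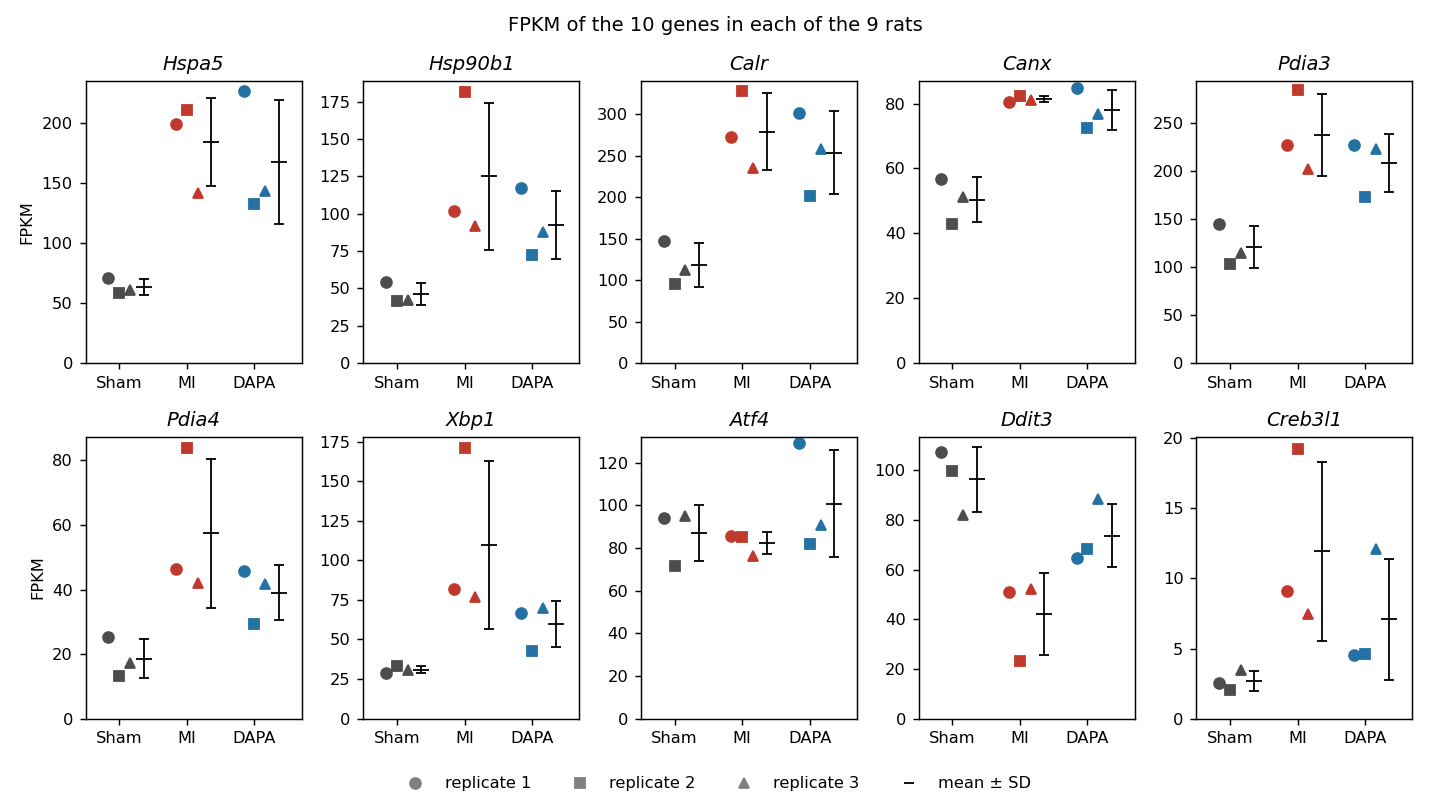
FPKM of the 10 genes in each of the 9 rats, 1 panel per gene with a linear axis from 0. Circles, squares and triangles are replicates 1, 2 and 3 of each group, and the mean with its SD stands beside them. Hspa5 lies between 58.4 and 70.8 in Sham and between 142 and 210.4 in MI, while Ddit3 runs the other way, from 82.0 to 107 in Sham to 23.3 to 52.1 in MI.

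The first comparison, MI against Sham, asked how the infarcted ventricle differs from the operated but intact one. Of the 10 genes, 8 were higher in MI and 1, Ddit3, was lower (limma on log2(FPKM + 1), Benjamini-Hochberg adjusted p below 0.05 over all genes tested). Only Atf4 was not called. Values of the 2 groups did not overlap for any of the 9 called genes. Among all genes tested, 27.1% were higher and 27.5% lower without overlap. Among all 13485 genes tested, 19.5% were called higher and 19.5% lower. The study's own rule was an unadjusted p below 0.05 with a log2 fold change over 1 in size, from DESeq2. With these thresholds on the limma values instead, 6 of the 10 were higher and 1 was lower, against 12.1% and 10.3% of all genes. All 9 calls were also made without MI replicate 2, the rat with the highest plasma cell markers. MI replicate 3, which stayed in, also had high ones, at a summed 677 FPKM against 10.9 to 19.4 in Sham. Leaving out Sham replicate 1 or 2 left 8, since Ddit3 then had an adjusted p of 0.0571 or 0.0573.

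Hspa5 encodes BiP, the main Hsp70 chaperone of the ER, which also holds the stress sensors inactive. Its FPKM was 70.8, 58.4 and 60.9 in the Sham rats, 199, 210.4 and 142 in the MI rats and 226, 132 and 143 in the DAPA rats. Every infarcted rat, treated or not, stood above every Sham rat. The mean rose from 63.3 ± 6.57 to 184 ± 36.7 FPKM (SD, n = 3) from Sham to MI, a ratio of 2.90, with a log2 fold change of 1.505 ± 0.19 (SE, limma adjusted p = 0.00193). Without MI replicate 2 the log2 fold change was 1.40.

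Hsp90b1 encodes GRP94, the Hsp90 chaperone of the ER, which helps to fold integrins and Toll-like receptors. Its FPKM was 54.4, 41.9 and 42.4 in Sham, 102, 182 and 91.8 in MI and 117, 72.5 and 87.9 in DAPA. MI replicate 2 was the highest of the 9 rats, and Sham again lay below all infarcted rats. The MI mean of 125 ± 49.3 was 2.71 times the Sham mean of 46.2 ± 7.08 (log2 fold change 1.36 ± 0.27, limma adjusted p = 0.00848), and the log2 fold change was 1.06 without MI replicate 2.

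Calr and Canx encode calreticulin and calnexin, the soluble and the membrane-bound chaperone that hold glycoproteins until they are folded. Calr was at 147, 95.04 and 112 FPKM in Sham, 273, 328 and 236 in MI and 301, 202 and 258 in DAPA. It rose 2.36 times from Sham to MI in the means (log2 fold change 1.24 ± 0.21, limma adjusted p = 0.00494). Canx was at 56.8, 43.0 and 51.2 in Sham, 80.5, 82.4 and 81.2 in MI and 84.8, 72.5 and 76.8 in DAPA. The 3 MI rats were close together, with an SD of 0.957 on a mean of 81.4. Its rise of 1.62 times was the smallest of the 8 (log2 fold change 0.69 ± 0.15, limma adjusted p = 0.0103). The ratio of Calr to Canx within a rat was 2.33 ± 0.22 in Sham, 3.43 ± 0.54 in MI and 3.23 ± 0.40 in DAPA, so the soluble member rose more than the membrane-bound one in both infarcted groups (exact permutation test, two-sided p = 0.1 against Sham for each, the smallest that 3 against 3 rats can give). This ratio was among 6 chosen after the values were seen.

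Pdia3 and Pdia4 encode the disulfide isomerases ERp57, the partner of calreticulin and calnexin, and ERp72. Pdia3 was at 145, 103 and 115 FPKM in Sham, 227, 285 and 202 in MI and 228, 173 and 223 in DAPA. All 6 infarcted rats were above the Sham rats, and the mean rose 1.96 times from Sham to MI (log2 fold change 0.97 ± 0.20, limma adjusted p = 0.00914). Catsper2 is annotated across Pdia3, and its mean FPKM was at most 0.810 in any group. Pdia4 was lower, at 25.4, 13.3 and 17.1 in Sham, 46.3, 83.8 and 42.0 in MI and 45.8, 29.5 and 41.8 in DAPA. MI replicate 2 again stood above the others. The ratio of means was 3.08 (log2 fold change 1.55 ± 0.32, limma adjusted p = 0.00967), and the log2 fold change was 1.25 without that rat.

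Xbp1 encodes the factor made active by IRE1, which raises chaperone, degradation and secretory genes and is needed for plasma cells to form. Its FPKM was 28.9, 33.1 and 30.9 in Sham, 81.9, 171 and 76.8 in MI and 66.7, 43.0 and 69.7 in DAPA. The 3 groups did not overlap: Sham was lowest, DAPA lay between and MI was highest. The MI mean of 109.9 ± 53.0 was 3.55 times the Sham mean of 31.0 ± 2.11 (log2 fold change 1.70 ± 0.30, limma adjusted p = 0.00566). Without MI replicate 2 the log2 fold change was 1.33 (limma adjusted p = 0.00303). The plasma cell marker Jchain, the joining chain of secreted antibody, was also highest in MI replicate 2. Its FPKM was 0.80, 3.45 and 1.42 in Sham, 23.9, 2881 and 503 in MI and 5.05, 7.39 and 8.87 in DAPA. MI replicate 3 had more Jchain than MI replicate 1 but less Xbp1. Mzb1, an ER protein of plasma cells, was at 0.73, 172 and 29.9 in the MI rats. In MI replicate 1, Xbp1 was at 81.9 and Hspa5 at 199, both above all Sham rats. Mzb1 in that rat lay inside the Sham range of 0.49 to 5.18, but Jchain was above all Sham rats. Its summed plasma cell markers, at 51.0 FPKM, were also above the Sham range of 10.9 to 19.4. The part of plasma cells in the MI values was not tested. Leaving out MI replicate 2 does not test it, since these markers still summed to 677 FPKM in MI replicate 3.

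Creb3l1 had the lowest level and the largest ratio. It was at 2.57, 2.07 and 3.44 FPKM in Sham, 9.11, 19.3 and 7.43 in MI and 4.55, 4.60 and 12.1 in DAPA. MI replicate 2 was again the highest, and DAPA replicate 3 stood well above the other DAPA rats. These values rested on 56 to 898 reads per rat. The mean rose 4.43 times, from 2.69 ± 0.696 to 11.9 ± 6.40 (log2 fold change 1.72 ± 0.34, limma adjusted p = 0.00827), and the log2 fold change was 1.34 without MI replicate 2. Fibroblast markers rose alongside, with 9 of 10 called higher in MI and a median log2 fold change of 3.20, as did 8 of 8 macrophage markers with a median of 2.62. Their part in the rise of Creb3l1 and of the chaperones was not tested.

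Atf4 and Ddit3, the factors of the PERK arm, went differently. Atf4 was at 94.0, 71.7 and 94.9 FPKM in Sham, 85.4, 85.4 and 76.4 in MI and 129, 82.1 and 91.0 in DAPA, and the groups overlapped throughout. Its log2 fold change from Sham to MI was -0.07 with a 95% interval from -0.44 to 0.31 (limma adjusted p = 0.769). Ddit3 was at 107, 99.6 and 82.0 in Sham, 51.0, 23.3 and 52.1 in MI and 64.5, 68.2 and 88.3 in DAPA. Every MI rat was below every rat of the other groups, and MI replicate 2 was the lowest. The MI mean of 42.1 ± 16.3 was 0.437 times the Sham mean of 96.3 ± 13.0 (log2 fold change -1.25 ± 0.31, limma adjusted p = 0.0193). Without MI replicate 2 the log2 fold change was -0.88 (limma adjusted p = 0.0131). Of 7 endothelial markers, 6 were lower in MI than in Sham as well (median -1.42), and their part in the fall of Ddit3 was not tested. Genes annotated across Ddit3 include Mars1, a tRNA synthetase gene, with 15.2 ± 0.929 FPKM in Sham and 15.3 ± 0.627 in MI. Any reads in a stretch of sequence shared with Ddit3 cannot be told apart, because the library kit does not mark strand. How much of their transcripts is shared was not determined.

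Whether Atf4 and Ddit3 were called depended on how the libraries are scaled. When all reads, mitochondrial ones included, set the scale, the median gene moved by 1.29 (all FPKM set to 1 sum) or 0.93 (all recovered reads) from Sham to MI on the log2 scale. Calls then split into 10986 higher and 278 lower, or 9039 and 520, in place of 2626 and 2635. Under these scalings Atf4 was called higher, with log2 fold changes of 1.47 and 1.03 (limma adjusted p = 0.000262 and 0.00158), and Ddit3 was not called at 0.28 and -0.16 (limma adjusted p = 0.417 and 0.669). These scalings multiply all genes of a rat by the same factor, but on the log2(FPKM + 1) scale low genes move less. With all FPKM set to 1 sum, Hspa5 went from 1.505 to 3.04 and the low Creb3l1 from 1.72 to 2.92. Values relative to the median therefore depend in part on a gene's level. Relative to the shifted median, Atf4 stood at 0.19 and 0.11 and Ddit3 at -1.0 and -1.08, so Ddit3 was below the median gene under each. The other 8 genes were called higher under both.

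Ratios between 2 genes of the same rat carry no library scale. Hspa5 was at 0.660, 0.586 and 0.743 times Ddit3 in the Sham rats, 3.89, 9.05 and 2.72 times in the MI rats and 3.50, 1.94 and 1.62 times in the DAPA rats. BiP mRNA was thus less abundant per length than CHOP mRNA in all 3 Sham rats and more abundant in all 6 infarcted rats. Hspa5 was at 0.753, 0.813 and 0.642 times Atf4 in Sham, 2.32, 2.46 and 1.86 times in MI and 1.75, 1.61 and 1.57 times in DAPA. The exact two-sided permutation p was 0.1 for both ratios in MI against Sham and in DAPA against Sham. Between DAPA and MI it was 0.2 for the ratio to Ddit3 and 0.1 for the ratio to Atf4. Of the ratios not described, Xbp1 to Hspa5 had an exact permutation p of 0.6 in MI against Sham and 0.2 in DAPA against Sham. The same test gave 0.7 and 0.1 for Hsp90b1 to Hspa5, and 0.1 and 0.2 for Atf4 to Ddit3. With 6 ratios and a smallest possible p of 0.1 none can pass a threshold of 0.05.

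**Figure D2:**
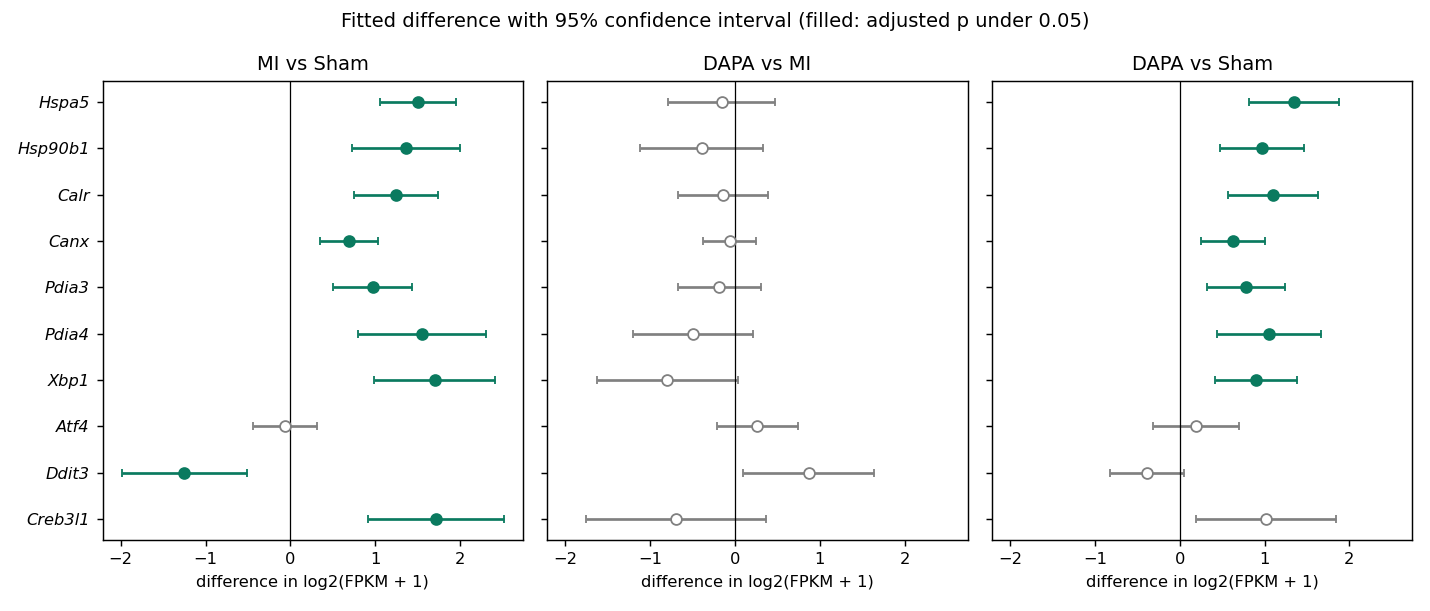
Log2 fold change of the 10 genes with 95% confidence intervals from limma, 1 panel per comparison. Filled points have an adjusted p below 0.05: 9 genes in MI against Sham, 0 in DAPA against MI and 7 in DAPA against Sham. The Ddit3 point lies at -1.25 in the first panel and at 0.87 in the second.

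The order of the genes by level changed with infarction. In Sham the means ran from Pdia3 (121 FPKM) and Calr (118) through Ddit3 (96.3), Atf4 (86.9), Hspa5 (63.3), Canx (50.3), Hsp90b1 (46.2), Xbp1 (31.0) and Pdia4 (18.6) down to Creb3l1 (2.69). The ranges of Pdia3, Calr, Ddit3 and Atf4 overlapped from one to the next, as did those of Canx and Hsp90b1, while the other neighbours were separate. Ddit3 was the third gene in Sham, rank 9 in MI and rank 7 in DAPA. In MI only Ddit3 and Creb3l1 at the low end were neighbours without overlap, and in DAPA only Hspa5 against Atf4 and Pdia4 against Creb3l1. Within groups the genes were not equally steady: the coefficient of variation in MI ran from 1.18% for Canx to 53.6% for Creb3l1.

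MI replicate 2 was the highest of the 9 rats for 6 genes, namely Hsp90b1, Calr, Pdia3, Pdia4, Xbp1 and Creb3l1, and the lowest for Ddit3. Sham replicate 2 was the lowest of all for 8 genes. DAPA replicate 1 was the highest of all for Hspa5, Canx and Atf4. MI replicate 2 was also the rat with the most plasma cell, T cell, fibroblast and macrophage marker RNA and the least cardiomyocyte marker RNA.

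**Figure D3:**
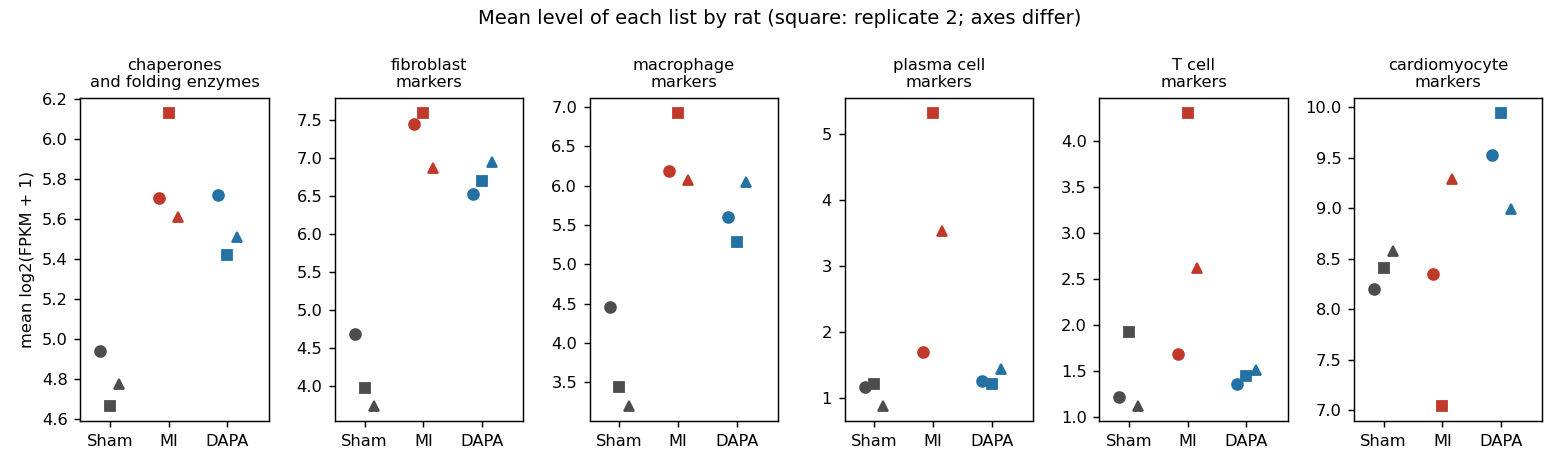
Mean log2(FPKM + 1) per rat of the chaperone list and of markers of fibroblasts, macrophages, plasma cells, T cells and cardiomyocytes, 1 panel per list with axes that differ. The chaperone list runs from 4.66 to 4.94 in Sham, 5.61 to 6.13 in MI and 5.42 to 5.72 in DAPA, and the plasma cell panel shows MI replicate 2 at 5.32 and MI replicate 3 at 3.52 against at most 1.69 in the other 7 rats.

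The wider folding machinery moved in the same direction. Of 25 ER chaperones and folding enzymes tested, 20 were higher in MI than in Sham and 1 lower, with a median log2 fold change of 0.97 against -0.005 over all genes. Leaving aside the 6 genes already described, 14 of 19 were higher. P4hb, a disulfide isomerase that is also a subunit of prolyl 4-hydroxylase for collagen, rose from 65.0 ± 13.9 to 254 ± 28.6 FPKM (log2 fold change 1.96 ± 0.19, limma adjusted p = 0.00105). Hyou1, an ER relative of Hsp70, rose from 8.05 ± 1.44 to 23.6 ± 6.45 (log2 fold change 1.43 ± 0.22, limma adjusted p = 0.0037). Dnajb9, a BiP co-chaperone and classical XBP1 target, rose by 1.05 ± 0.21 and Manf, a secreted ER stress protein, by 0.89 ± 0.19 on the log2 scale (limma adjusted p = 0.00882 and 0.0104). Sdf2l1 was at 17.4, 71.5 and 30.2 FPKM in the MI rats and 13.0, 6.32 and 6.62 in Sham (log2 fold change 1.91 ± 0.50, limma adjusted p = 0.0225), so most of its mean came from MI replicate 2. Creld2 had the same shape, with 60.3 in MI replicate 2 against 19.97 and 21.7 in the other MI rats, and was not called (limma adjusted p = 0.154).

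The lower gene of that list was Ero1b, an oxidase that recharges disulfide isomerases, named after its value was seen. It fell by 0.69 on the log2 scale (limma adjusted p = 0.0335), from 5.73 ± 0.838 to 3.21 ± 0.845 FPKM, but stood at 0.56 and 0.21 when all FPKM or all recovered reads set the scale, which is 0.72 and 0.71 below the shifted median. Ero1b is also 1 of 21 genes, by symbol, whose promoter held the ER stress response element. Of the 16 such genes outside the 10 described here, 9 were tested, and 1 was called higher and 2 lower in MI, with a median log2 fold change of -0.02. The higher one was Dnajc3, a BiP co-chaperone and inhibitor of PERK (1.49, limma adjusted p = 0.00907), and the lower ones were Ero1b and Pan2, a deadenylase subunit (-1.36, limma adjusted p = 0.00168). All 5 genes described here with the element were called higher, and so were Pdia4 and Creb3l1, whose promoters gave no match, and Pdia3, whose promoter was not searched.

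Among the sensors and regulators, 3 of 9 were higher in MI and 0 lower (median 0.50). Besides Xbp1 these were Wfs1, an ER membrane protein, and Atf6, which was at 1.96, 0.89 and 1.41 FPKM in Sham and 8.13, 9.51 and 5.22 in MI (log2 fold change 1.82 ± 0.27, limma adjusted p = 0.00297). The sensor genes of the other arms were not called. Ern1 had a log2 fold change of 0.53 (limma adjusted p = 0.191) and Eif2ak3 of 0.12 with a 95% interval from -0.24 to 0.47 (limma adjusted p = 0.57).

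ER-associated degradation, which returns misfolded proteins to the cytosol, had 11 of 16 tested genes higher and 0 lower (median 0.79). Edem1, which recognises misfolded glycoproteins, was at 1.92, 3.85 and 2.44 FPKM in Sham and 12.9, 38.8 and 14.4 in MI, a log2 fold change of 2.48 ± 0.42 (limma adjusted p = 0.00476). Herpud1, a stress-induced part of the degradation complex, rose from 27.9 ± 2.77 to 87.9 ± 18.5 (log2 fold change 1.60 ± 0.18, limma adjusted p = 0.0015). Of the ligase pair at its core, Sel1l rose by 0.95 on the log2 scale (limma adjusted p = 0.0275), and Syvn1 had a log2 fold change of 0.02 with a 95% interval from -0.53 to 0.56.

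PERK and integrated stress response targets were the mixed list, with 8 of 19 tested genes higher and 2 lower (median 0.46). The lower genes were Ddit3 and Sesn2, a stress-induced regulator of mTORC1. Sesn2 had a log2 fold change of -0.75, but 0.67 and 0.27 when all FPKM or all recovered reads set the scale, 0.61 and 0.66 below the shifted median. The higher genes were Asns, Mthfd2, Phgdh, Aldh1l2, Slc3a2, Slc7a5, Cebpb and Vldlr, of which Asns to Aldh1l2 act in asparagine, serine and folate metabolism and Slc3a2 and Slc7a5 form an amino acid transporter. Asns was at 2.02, 7.15 and 2.30 FPKM in MI and 0.99, 0.79 and 0.56 in Sham (log2 fold change 1.29 ± 0.39, limma adjusted p = 0.0366). Other known targets of ATF4 or CHOP were not called: Trib3 had a log2 fold change of 0.18, Ppp1r15a of -0.20 and Atf3 of -0.01 (limma adjusted p from 0.559 to 0.961). This list rested on single rats and on the filter. Without MI replicate 1 it had 6 calls in place of 10 and a median of 0.06. Its median was 0.22 without MI replicate 3 and 0.10 when each rat had to reach an FPKM of 1.

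The OASIS family and secretory transport list had 8 of 10 tested genes higher and 0 lower (median 1.17). Creb3l2, the closest relative of Creb3l1, was at 2.60, 1.08 and 1.80 FPKM in Sham and 11.2, 12.5 and 9.39 in MI (log2 fold change 2.12 ± 0.24, limma adjusted p = 0.00147). Kdelr3, a receptor that retrieves escaped ER proteins, rose by 1.12 ± 0.15 on the log2 scale (limma adjusted p = 0.00239), while the family member Creb3 was at 30.3 ± 4.11 in Sham and 27.7 ± 2.73 in MI (limma adjusted p = 0.57). The translocon and N-glycosylation list, through which new chains enter the ER, had 10 of 18 higher and 0 lower (median 0.85). Its pore subunit Sec61a1 rose by 0.86 (limma adjusted p = 0.011), and Ssr4, at 286 FPKM in MI replicate 2 against 130 and 132 in the other MI rats, had a limma adjusted p of 0.069.

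Collagen chaperones had 9 of 13 higher and 0 lower (median 1.21). Serpinh1, the collagen chaperone HSP47, rose from 111 ± 20.6 to 336.5 ± 65.3 FPKM (log2 fold change 1.59 ± 0.21, limma adjusted p = 0.00242) and Fkbp10, a collagen prolyl isomerase, by 1.68 on the log2 scale (limma adjusted p = 0.00392). Chaperones of other compartments had lower medians. Cytosolic heat shock proteins had 4 of 11 higher and 0 lower (median 0.49), and 2 without MI replicate 1 or MI replicate 3. Hsp90ab1, the constitutive cytosolic Hsp90, rose by 0.85 (limma adjusted p = 0.0114), Hspa8 had a log2 fold change of 0.13 (limma adjusted p = 0.65) and the heat-inducible Hspa1b of 1.01 (limma adjusted p = 0.0764). Mitochondrial chaperones and proteases had 1 of 8 higher and 1 lower (median -0.15), though 8 and 7 of the 8 were called higher when all FPKM or all recovered reads set the scale, with list medians 0.09 and 0.01 above that of all genes. Hspa9, the mitochondrial Hsp70, rose by 0.90 (limma adjusted p = 0.00331) and Hspd1 had a log2 fold change of 0.46 (limma adjusted p = 0.137). The lower gene was Clpx, at -0.90, but at 0.58 and 0.16 when all FPKM or all recovered reads set the scale, 0.70 and 0.77 below the shifted median.

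**Figure D4:**
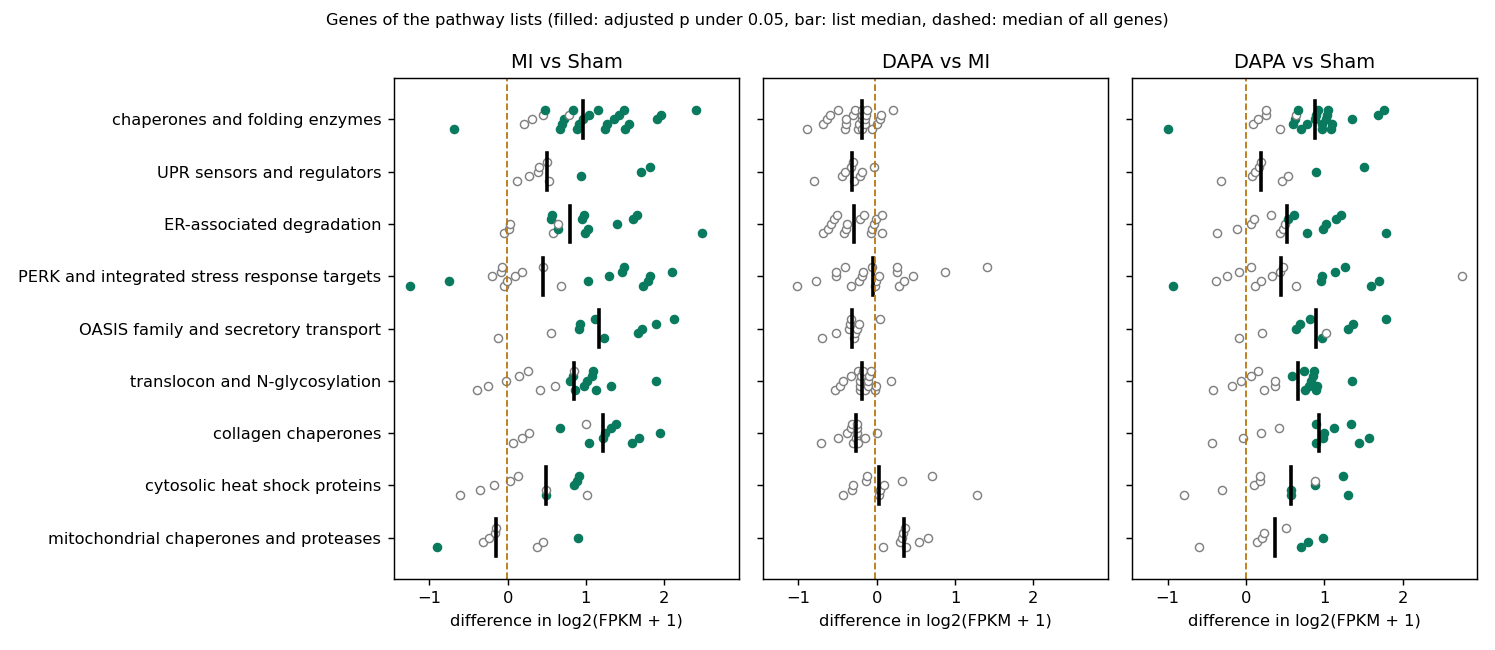
Log2 fold change of each gene of 9 lists, 1 panel per comparison. Filled dots have an adjusted p below 0.05, the bar is the median of the list and the dashed line the median of all genes tested. In MI against Sham the medians of the ER lists lie between 0.46 and 1.21, and in DAPA against MI no dot is filled.

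The second comparison, DAPA against MI, asked what treatment from day 1 changed in the infarcted ventricle. None of the 10 genes was called, and 0% of all 13251 genes tested were called (limma, adjusted p below 0.05). At an unadjusted p below 0.05, 1 of the 10 (Ddit3) was higher and 0 lower, against 4.59% higher and 3.9% lower among all genes. limma voom on the recovered reads also called 0 of the 10.

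Of the 10 genes, Ddit3 was higher and Xbp1 lower in DAPA without overlap with MI. Among all genes tested, 6.63% were higher and 7.16% lower without overlap, so 1 gene of 10 in each direction is near the background. Ddit3 was higher in DAPA, with 73.7 ± 12.8 against 42.1 ± 16.3 FPKM, a log2 fold change of 0.87 ± 0.32 with a 95% interval from 0.09 to 1.64 (limma adjusted p = 0.558, and 0.0329 before adjustment). Xbp1 was lower in DAPA, with 59.8 ± 14.6 against 109.9 ± 53.0, a log2 fold change of -0.80 ± 0.35 with an interval from -1.63 to 0.03 (limma adjusted p = 0.558, and 0.0566 before adjustment). Much of both differences came with MI replicate 2: without it the log2 fold changes were 0.49 for Ddit3 and -0.43 for Xbp1. With all FPKM or all recovered reads as the scale, Ddit3 was at 0.51 and 0.65 and Xbp1 at -1.17 and -1.02. Relative to the median of all genes there, Ddit3 was at 0.84 and 0.86 and Xbp1 at -0.83 and -0.81.

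For the remaining genes the intervals bound what could be seen. The log2 fold change was -0.16 for Hspa5 with an interval from -0.79 to 0.48, and -0.39 for Hsp90b1 with one from -1.12 to 0.33. Canx had the narrowest, from -0.38 to 0.25 around -0.06. Calr at -0.14 (-0.67 to 0.39) and Pdia3 at -0.19 (-0.68 to 0.30) were similar in width, while Pdia4 at -0.50 (-1.21 to 0.21) and Creb3l1 at -0.70 (-1.75 to 0.36) were wider. Atf4 was at 0.26 with an interval from -0.21 to 0.74, and at -0.10 when all FPKM were set to 1 sum, which is 0.23 above the median of all genes there. Except for Canx, the intervals leave room for a change of 1.5 times or more in at least 1 direction. Without MI replicate 2, Hsp90b1 was at -0.09, Pdia4 at -0.20 and Creb3l1 at -0.32.

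No gene of the wider lists was called between DAPA and MI. The medians of the chaperone list (-0.19), sensors (-0.31), degradation (-0.30), OASIS family (-0.31), translocon (-0.19) and collagen chaperones (-0.26) were below the median of all genes, -0.018. The PERK and integrated stress response list was near that median, at -0.04, with 8 of 20 tested genes above 0. Cytosolic heat shock proteins were at 0.03 and mitochondrial chaperones at 0.35. Without MI replicate 2 the medians were -0.12 for the chaperone list, -0.17 for sensors, -0.14 for degradation, -0.17 for the OASIS family, -0.04 for the translocon and 0.21 for mitochondrial chaperones, while collagen chaperones were at -0.29. Cell type markers moved along with these lists, though none was called. The median log2 fold change was 1.31 for 11 cardiomyocyte markers, all of them above 0, and -0.78 for 8 macrophage, -0.51 for 10 fibroblast and -1.44 for 5 plasma cell markers, all of them below 0. Their part in these values was not tested. Without overlap with MI, 6.63% of all genes tested were higher in DAPA and 7.16% lower. Of 120 genes of the lists outside the 10, 2 were higher and 15 lower without overlap, together 14.2%. Of the 29 chosen to be named, these were Dnajb9 (-0.41, 10.2 to 12.8 FPKM in DAPA against 13.4 to 18.4 in MI), Eif2ak3 (-0.44), Sel1l (-0.62) and Syvn1 (-0.38), all lower in DAPA, with limma adjusted p of 0.558 or 0.575.

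The third comparison, DAPA against Sham, gives the genes that still differed under treatment. It shares its rats with the other comparisons, so its values are not independent of theirs. Of the 10 genes, 7 were higher and 0 lower, against 14.5% higher and 14.1% lower among 13359 genes tested. These were Hspa5 with a log2 fold change of 1.35 ± 0.23 (limma adjusted p = 0.00642), Calr with 1.10 ± 0.23 (0.0125), Pdia4 with 1.05 ± 0.26 (0.0232), Hsp90b1 with 0.97 ± 0.21 (0.0154), Xbp1 with 0.90 ± 0.21 (0.018), Pdia3 with 0.78 ± 0.20 (0.0241) and Canx with 0.63 ± 0.16 (0.0256). Creb3l1 did not overlap with Sham either but was not called (1.02 ± 0.36, limma adjusted p = 0.0671). Among all genes tested, 23.2% were higher and 23.3% lower than Sham without overlap. Atf4 was at 0.20 (limma adjusted p = 0.533). Ddit3 was at -0.39 with an interval from -0.82 to 0.05 (limma adjusted p = 0.159), but at 0.79 (limma adjusted p = 0.0376) and 0.49 when all FPKM or all recovered reads set the scale, 0.20 and 0.26 below the shifted median.

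These calls rested on single rats more than those of MI against Sham. Leaving out DAPA replicate 1 left 1 call, Hspa5, with Hsp90b1 and Calr at limma adjusted p of 0.0519 and 0.0503, and leaving out Sham replicate 3, DAPA replicate 3 or Sham replicate 2 left 2, 3 or 4. The log2 fold changes themselves moved less: without DAPA replicate 1 Hsp90b1 was at 0.79, Calr at 0.97 and Pdia4 at 0.93. Of the 25 chaperones and folding enzymes, 18 were higher and 1 lower (median 0.88), and 7 were called in all without DAPA replicate 1, 9 without Sham replicate 3, 11 without DAPA replicate 3 and 12 without Sham replicate 2. P4hb rose to 209 ± 27.0 FPKM (1.68, limma adjusted p = 0.00235), Edem1 to 11.8 ± 2.50 (1.79, limma adjusted p = 0.00335), Atf6 to 5.86 ± 1.17 (1.51, limma adjusted p = 0.00527) and Creb3l2 to 8.82 ± 2.87 (1.79, limma adjusted p = 0.00519). Dnajb9 and Sel1l were not called, at 0.63 and 0.32 (limma adjusted p = 0.0534 and 0.181). In the PERK list 6 of 18 tested genes were higher and 1 lower. Marker lists moved here too, with 9 of 10 fibroblast markers (median 2.59), 8 of 8 macrophage markers (2.09) and 6 of 11 cardiomyocyte markers (0.84) higher than in Sham and 5 of 7 endothelial markers lower (-1.11), and their part was not tested. Plasma cell markers summed to 19.9 to 26.1 against 10.9 to 19.4 in Sham, with Mzb1 at 0.20, 0.34 and 0.66 FPKM.

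Likeness of pattern was measured over the 9 rats as the root mean square difference of log2(FPKM + 1), each gene centred on its mean, among 14156 genes. Within the 10, Calr and Pdia3 were closest, at 0.155, followed by Hsp90b1 and Pdia4 at 0.160, and Ddit3 and Creb3l1 farthest apart, at 1.39. The genes most like Hspa5 in the whole table were Txndc15 (0.147), Gadd45b (0.165) and Col12a1 (0.170). Those most like Calr were Lrrc59 (0.0771), an ER membrane protein, Tnfrsf1a (0.0840) and Ifngr2 (0.0933), receptors for tumour necrosis factor and interferon gamma. Creb3l1 was most like Aoah (0.186), Ikzf1 (0.208) and Ctsc (0.233), which are leukocyte genes. For Ddit3 the nearest were Ccdc9b (0.222), LOC103690141 (0.231) and Kcnk3 (0.272), a potassium channel. The points share libraries and scaling, and these values are descriptions.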

How the data were processed

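Left ventricles of 3 Sham, 3 MI and 3 MI + DAPA (1st d) rats had been sequenced as poly-A selected, paired-end libraries from a kit without strand marking. The deposited FPKM, which the authors had scaled to gene length and a library-size denominator, come as 1 column for each rat, and 0 columns were left out. The submitters' processing notes name HISAT2 2.0.5, StringTie 1.3.3b, featureCounts 1.5.0-p3 and DESeq2, and the genome build is not given in the sources used here, so no coordinates of the files are printed. Promoters are from RefSeq (GRCr8).

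limma 3.58.1 (R 4.3.3) was run on log2(FPKM + 1) with a trended prior variance, 2 groups per fit and no covariate, for genes with FPKM of at least 1 in at least 3 rats fitted. Fold changes are on the log2(FPKM + 1) scale, which understates those of low genes. Calls are Benjamini-Hochberg adjusted p below 0.05 over all genes tested, and the smallest p of an exact test of 3 rats against 3 is 0.1. All 18896 genes with a value in at least 4 rats gave whole reads (tolerance 0.005 of a read), which served for depth and for limma voom. The smallest and largest read numbers behind a value were 56 (Creb3l1) and 10816 (Calr), and counting error is only part of the spread between rats. Python 3.11.15, numpy 2.4.6, pandas 2.3.3 and matplotlib 3.10.9 were used for the rest.

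The 10 genes, gene lists and markers were chosen with earlier results of these data known. All 10 genes are named, then a fixed choice per list, and for 4 genes the 3 most alike, others being named after their values were seen. The replicates are separate rats. Alternatives were a pseudocount of 0.1, other filters, all 9 rats in 1 fit, a replicate block, 4 scalings, voom, no trend, the study's rule, and each rat left out.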

Additional observations from a re-analysis of the deposited data

How the results depend on the processing

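In MI against Sham, 8 to 9 of the 10 genes were called when each rat was left out in turn, 7 by the study's rule, and 9 under every other alternative. In DAPA against MI, 0 were called under all alternatives. In DAPA against Sham, 7 were called, 1 to 7 when each rat was left out, 4 by the study's rule, and 5 to 10 under the others. Of single log2 fold changes, Atf4 in MI against Sham changed sign to 1.47 and 1.03 when all FPKM or all recovered reads set the scale and ran from -0.20 to 0.003 with 1 rat left out. Ddit3 in MI against Sham became 0.28 with all FPKM set to 1 sum, and in DAPA against Sham 0.79 and 0.49 under these scalings. In DAPA against MI, Atf4 became -0.10 with all FPKM set to 1 sum and Calr ran from -0.28 to 0.013 with 1 rat left out. These scalings count the mitochondrial reads, and moved the median of all genes by 1.29 and 0.93 in MI against Sham, 0.98 and 0.74 in DAPA against Sham, and -0.32 and -0.19 in DAPA against MI. Same-numbered rats did not deviate together (correlations from -0.30 to 0.20). With values centred within groups of 3 rats, this cannot show whether the numbers pair the rats. With the replicate block 9, 0 and 8 genes were called in the 3 comparisons, the added one being Creb3l1 in DAPA against Sham (limma adjusted p = 0.0294). The cause of the other shifts was not tested. Creb3l1, with the fewest reads, is the least precise of the 10, and 3 rats a group limit all intervals.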
